A study of Drosophila melanogaster with 12 samples.

Results

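Insulin signalling genes were followed through the first hours after yeast came back into the diet of yeast-deprived Drosophila melanogaster. The genes were InR, chico, Pi3K92E, Pi3K21B, Pdk1, Akt, foxo, ImpL2 and Ilp2, and a probe set was counted as a member when the platform annotation gave it a single gene symbol and that symbol was on this list. This found 8 probe sets for 7 of the 9 genes among 14010 probe sets on the array, with 2 for Pdk1, and 7 of the 10844 genes that the annotation names singly. No probe set was assigned to Pi3K92E or Pi3K21B, the catalytic and adaptor subunits of the class I lipid kinase, and they were not analysed here. Of the 8 probe sets, 7 exceeded the intensity floor of 57.2, the 20th percentile of the whole table, on all 12 arrays, and were tested. The other, 141986_at for Pdk1, stayed under the floor on every array, at 23.4 to 36.3, and has no order there.

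The RNA came from whole animals. The animals had been moved in the third larval instar to a standard diet from which yeast was left out, and as adults, 4 days after emergence, they were given yeast again. Each of the 12 arrays holds flies killed at a different hour from 1 to 12 after that switch. Strain, sex and the number of flies per array are not given in the labels, and hour is the single factor. Since each hour has 1 array, hour 1 cannot be told apart from its own RNA preparation, hybridisation or time of day, and p-values measure the spread between these arrays, which may be technical. In RNA from whole animals, fewer cells of a type and less RNA per cell cannot be told apart.

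In the fly, insulin-like peptides such as Ilp2, made by neurosecretory cells of the brain, bind the receptor InR. The receptor recruits the substrate protein Chico and the class I lipid kinase, whose product brings the kinases Pdk1 and Akt to the membrane, and Akt phosphorylates Foxo and keeps it out of the nucleus. When food is scarce Foxo enters the nucleus and activates target genes, InR among them, while the secreted protein ImpL2 binds insulin-like peptides in the blood and restrains the pathway.

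The first hour stood apart for the receptor and for Pdk1, and after it both held a level without a detected trend. InR was 1.80 times and Pdk1 2.29 times as high on the hour 1 array as on the mean of the 11 later arrays. Akt, foxo and chico also had their highest reading at hour 1, by smaller margins that did not pass the test. ImpL2 followed another course, high through hour 3 and lower afterwards, and Ilp2 showed neither pattern. The question addressed was which part of each profile belongs to the first hour and which to the hours that follow.

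**Figure D1:**
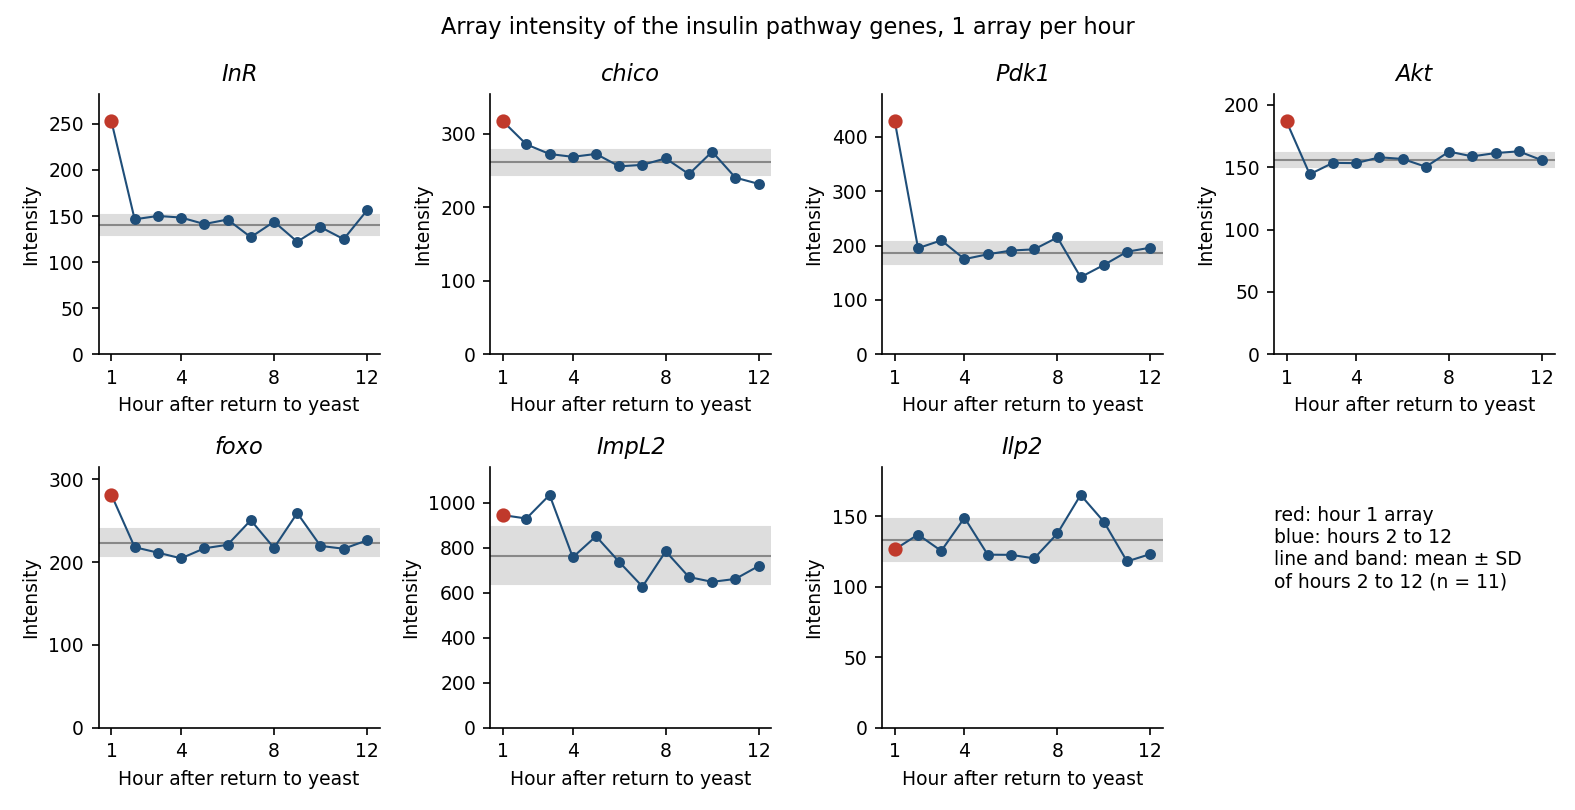
Intensity (linear, y axis) of the 7 tested insulin pathway probe sets against hour after return to yeast (x axis), 1 array per point; the red point is hour 1, and the line and band are the mean and SD of hours 2 to 12 (n = 11). InR and Pdk1 fall from 252.6 and 428.0 at hour 1 to 146.5 and 195.1 at hour 2 and stay near their band, and ImpL2 steps down after hour 3.

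A few facts of the arrays bear on hour 1. It was the highest of the 12 arrays for 15.3% of the 11586 tested probe sets and the lowest for 12.4%, and hour 9 was the highest for 21.2%. The mean log2 intensity of the bacterial and phage spike-in controls was 10.75 at hour 1 and 9.41 to 10.28 at later hours. The actin control probes at the 3' end exceeded those at the 5' end by 1.13 (log2) at hour 1 and 0.69 to 1.10 later. For the eIF-4a controls this difference was 1.74 at hour 1 and 1.16 to 1.68 later, and for GAPDH 1.57 and 1.33 to 2.32. Of these differences only that of actin was used as a covariate. The summed intensity of 5 neuronal markers was 1344 at hour 1 and 814 to 1290 later, and that of 5 fat body markers 2011 and 1517 to 3779. For 13 genes listed as ovary, yolk protein and egg shell markers the sum was 3846 at hour 1 and 4216 to 18462 later. The sums were not tested as measures of tissue content. With the actin difference as covariate the hour 1 differences were 0.85 ± 0.14 for InR (limma adjusted p = 0.041) and 1.17 ± 0.19 for Pdk1 (limma adjusted p = 0.0355), on the log2 scale. The part of the spike-in level and of these marker sums in the hour 1 levels was not tested. RNA of males was carried by 5 arrays, at hours 2, 3, 5, 9 and 10. The sum of 11 male accessory gland markers was 901 to 1367 there and 374 to 450 on the other 7, hour 1 included, and 4 of the 11 were under the floor throughout. The sum of 8 testis markers was 2319 to 3238 on those 5 and 1523 to 1712 on the other 7.

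Hour 1 was compared with hours 2 to 12 in a limma fit over all 11586 tested probe sets, in which the lone array is assumed to vary like the later 11. At an adjusted p under 0.05 this called 65 probe sets higher (0.561%) and 9 lower (0.0777%) at hour 1. Of the 7 insulin probe sets 2 were called higher, InR and Pdk1, and 0 lower. Together these were 74 calls (0.639%), a count that leaving out hour 2 moved to 178, hour 5 to 44, hour 6 to 44 and hour 11 to 46. InR and Pdk1 passed in each of these fits. The hour 1 array read higher than each later array for 5 of the 7, against 15.3% of all tested probe sets. The median difference of the 7 was 0.32 on the log2 scale and that of all tested probe sets -0.02.

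**Figure D2:**
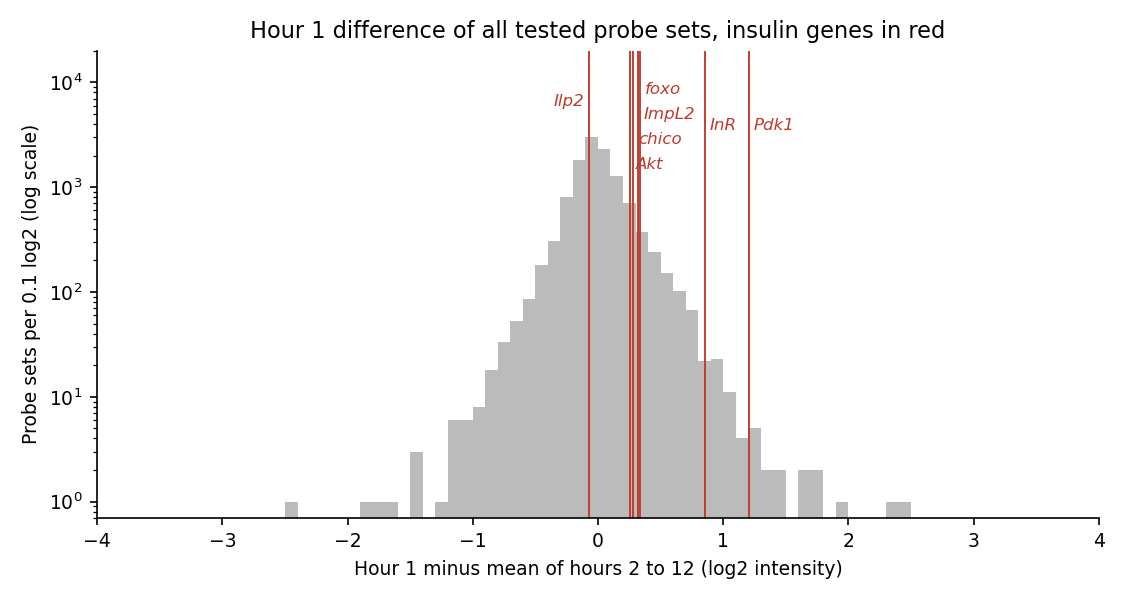
Number of tested probe sets (log scale, y axis) by the log2 difference between hour 1 and the mean of hours 2 to 12 (x axis), in steps of 0.1, with the 7 insulin probe sets as red lines. Pdk1 at 1.21 and InR at 0.85 lie in the right tail, Akt, chico, ImpL2 and foxo between 0.26 and 0.33, and Ilp2 at -0.07 near the middle.

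InR encodes the insulin receptor, the receptor tyrosine kinase at the head of the pathway. Its probe set 143734_at read 252.6 at hour 1, then 146.5, 150.1, 148.4, 141.3 and 146.2 at hours 2 to 6, and 127.1, 143.8, 122.2, 138.0, 124.9 and 156.0 at hours 7 to 12. The hour 1 value lay above every later one, and was 1.62 times the highest of them, that of hour 12. The later hours had a mean of 140.4 ± 11.1 (SD, n = 11). On the log2 scale hour 1 was higher by 0.85 ± 0.12 (SE, limma adjusted p = 0.00674), the 13th smallest p of the table. Against hours 2 to 4 alone the difference was 0.77 ± 0.13 (limma adjusted p = 0.0217). Without the 5 arrays holding male RNA it was 0.85 ± 0.13 (limma adjusted p = 0.0438), and the 5 later arrays with male RNA (122.2 to 150.1) overlapped the 6 without it (124.9 to 156.0).

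After hour 1 InR had no detected trend. The fitted log2 change from hour 2 to hour 12 was -0.12 ± 0.11 (limma adjusted p = 0.567), with a 95% interval from -0.36 to 0.11. A line through all 12 hours gave -0.46 ± 0.19 (limma adjusted p = 0.136), and the drop of 0.79 on the log2 scale from hour 1 to hour 2 was larger than any later step between neighbouring hours, the largest being 0.32 from hour 11 to hour 12. When the later line was extended back to hour 1, the measured value lay 0.78 ± 0.13 above it (limma adjusted p = 0.0309), a fit in which 28 probe sets were called higher (0.242%) and 7 lower (0.0604%), together 0.302%. The 35 calls of that fit became 17 when hour 3 was left out, 8 for hour 4, 14 for hour 5, 17 for hour 6, 12 for hour 11 and 23 for hour 12. For InR the call was lost at nearly the same size without hour 2 (0.0594), 3 (0.0683), 4 (0.0703), 5 (0.0637), 6 (0.0531) or 11 (0.0526), and without the arrays with male RNA (limma adjusted p = 0.246). It was also lost with quantile (0.0571) or median (0.0589) normalization, the male gland level as covariate (0.08) or log2 of hour as time (0.178).

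Pdk1 encodes the kinase that phosphorylates the activation loop of Akt. Its measured probe set, 142677_s_at, carries the suffix that Affymetrix gives to probes shared by several transcripts, so that these transcripts cannot be told apart. It read 428.0 at hour 1 and 195.1, 209.5, 175.0, 183.9 and 190.7 at hours 2 to 6. At hours 7 to 12 it read 193.0, 214.8, 141.9, 164.2, 188.6 and 196.0. Hour 1 was thus 1.99 times the highest later array, and the later mean was 186.6 ± 20.5 (SD, n = 11).

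The hour 1 difference of Pdk1 was 1.21 ± 0.16 on the log2 scale (SE, limma adjusted p = 0.00523), the 9th smallest p of the table and the largest difference among the 7. Averaging it with the dim second probe set left 0.60 ± 0.09 (limma adjusted p = 0.012). That probe set is constant at the floor, so the averaging shrinks the difference and its error alike and is no separate check. The trend over hours 2 to 12 did not pass, at -0.13 ± 0.15 (limma adjusted p = 0.679), and had the opposite sign, 0.13, without the arrays holding male RNA. Its largest later step was -0.60 on the log2 scale, from hour 8 to hour 9, while the step from hour 1 to hour 2 was -1.13. Against the later line extended to hour 1 the excess was 1.13 ± 0.18 (limma adjusted p = 0.0246), and this call was lost without hour 4 (0.0628), 5 (0.0538) or 11 (0.0528), with the male gland covariate (0.0531) and with log2 of hour (0.135).

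The 3 other members with their highest reading at hour 1 did not pass. Akt, the kinase at the centre of the pathway, read 186.7 at hour 1 and then between 144.4 at hour 2 and 162.7 at hour 11, with a later median of 156.7. Its later arrays were the tightest of the 7, with a coefficient of variation of 3.56%, and hour 1 did not overlap them. The difference was 0.26 ± 0.08 (SE, limma adjusted p = 0.151), with a 95% interval from 0.10 to 0.42 before adjustment.

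The gene foxo encodes the forkhead transcription factor that Akt restrains. It read 280.9 at hour 1 and from 204.4 at hour 4 to 259.1 at hour 9 afterwards, with a later median of 217.9. Hours 7 and 9, at 250.5 and 259.1, came nearest to hour 1. The hour 1 difference was 0.33 ± 0.11 (SE, limma adjusted p = 0.208), and the trend over hours 2 to 12 was 0.11 ± 0.10 (limma adjusted p = 0.585).

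For chico, the insulin receptor substrate, the level fell over the 12 hours, and the fits do not tell a gradual decline from a step at hour 1. It read 317.1 at hour 1, 285.8 at hour 2, between 245.4 and 275.9 at hours 3 to 10, 240.6 at hour 11 and 232.1 at hour 12, the lowest value. Over all 12 hours it fell by 0.30 ± 0.08 on the log2 scale (SE, limma adjusted p = 0.0207), in a fit that called 4.97% of tested probe sets lower and 8.44% higher, together 13.4%. The 1554 calls of that fit became 997 when hour 1 was left out, 1030 for hour 2, 943 for hour 11 and 996 for hour 12. Set apart from hour 1, the change from hour 2 to hour 12 was -0.21 ± 0.08 (limma adjusted p = 0.101) and the hour 1 difference from the later mean 0.28 ± 0.10 (limma adjusted p = 0.259), so neither piece passed alone. The call over 12 hours was lost without hour 1 (0.101), 11 (0.0591) or 12 (0.0815), with the actin difference as covariate (0.282) and on ranks (0.0745). The change over hours 2 to 12 passed without hour 10, at -0.26 (limma adjusted p = 0.019).

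**Figure D3:**
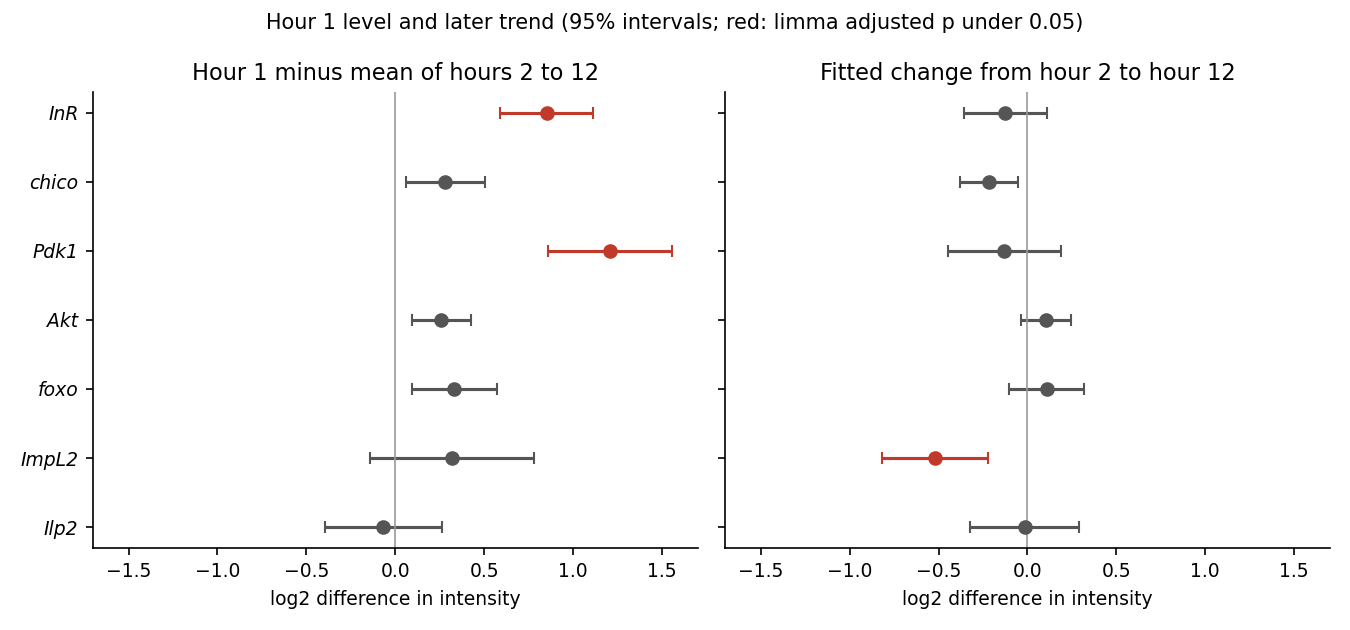
Log2 difference in intensity between hour 1 and the mean of hours 2 to 12 (left) and fitted log2 change from hour 2 to hour 12 (right) for the 7 insulin pathway genes, with 95% intervals; red marks a limma adjusted p under 0.05. InR and Pdk1 are red on the left and ImpL2 on the right, and Ilp2 lies at 0 on both within its interval.

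ImpL2, the secreted binding protein that holds insulin-like peptides away from the receptor, had the highest intensities of the 7 probe sets, although levels of different probe sets cannot be compared. It read 945.7, 930.6 and 1035.4 at hours 1 to 3, then 758.2, 851.8, 737.4, 627.8, 784.8, 670.4, 649.0, 662.0 and 719.3 at hours 4 to 12. Hours 1 to 3 lay above every later array. Hour 1 was second to hour 3, and its difference from the later mean did not pass (0.32 ± 0.21, SE, limma adjusted p = 0.598). The largest step was the drop of 0.45 on the log2 scale from hour 3 to hour 4.

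Of the 7, ImpL2 was the probe set with a trend past the threshold once hour 1 was set apart. From hour 2 to hour 12 it fell by 0.52 ± 0.14 on the log2 scale (SE, limma adjusted p = 0.0345), in a fit that called 2.67% of tested probe sets lower and 5.94% higher, together 8.61%. The later arrays with male RNA averaged 827.4 ± 166.6 (SD, n = 5) and those without 714.9 ± 59.4 (SD, n = 6), with overlapping ranges. Without the 5 male arrays the change over hours 2 to 12 was -0.12 ± 0.17 (limma adjusted p = 0.743), a fit in which 0 probe sets were called at all and 2225 had an unadjusted p under 0.05. The call was also lost without hour 2, where the change was -0.49 (0.142), hour 3 (-0.40, 0.105), hour 5 (-0.51, 0.062) or hour 11 (-0.53, 0.0906), and with the male gland level (0.0627) or the actin difference (0.198) as covariate. Over the whole table, the 997 calls of this fit became 310 when hour 2 was left out, 570 for hour 3, 1762 for hour 10, 451 for hour 11 and 405 for hour 12.

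Ilp2, an insulin-like peptide, passed neither test. Its probe set read 126.6 at hour 1, had a later median of 125.6, and ranged from 118.1 at hour 11 to 165.3 at hour 9. Hour 1 was the 6th highest of the 12 arrays. The hour 1 difference was -0.07 ± 0.15 (SE, limma adjusted p = 0.904), with a 95% interval from -0.40 to 0.26, and the change from hour 2 to hour 12 was -0.02 ± 0.14 (limma adjusted p = 0.965), with an interval from -0.32 to 0.29. Transcripts of a few brain cells are a small part of whole-animal RNA, and the summed markers of the insulin-producing cells, Ilp2 and dimm, ranged from 196 to 260. This sum contains Ilp2 itself, so it is not a separate measure of those cells.

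An exact permutation test of hour 1 against the other 11 arrays cannot go below p = 0.0833 for a single probe set, the value reached when hour 1 is the most extreme array. The calls for InR and Pdk1 therefore rest on the spread that limma estimates from the later arrays and shares across probe sets.

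The members' likeness to each other depended on hour 1. Over the 12 arrays the log2 levels of InR and Pdk1 had Pearson r = 0.92 and Spearman rho = 0.66, and over hours 2 to 12 r = 0.54 and rho = 0.56. InR and Akt had r = 0.69 over the 12 arrays and -0.29 over the later 11. InR and foxo went from 0.45 to -0.65. These correlations describe 12 and 11 arrays that share their hours and processing.

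Among 9255 other probe sets with a single symbol and above the floor on all arrays, the 5 most like InR over the 12 arrays were those of CREG, Atg2, Sirup, Pdk1 and Cyp4e3. Their Pearson r was 0.92 to 0.94 and their Spearman rho 0.50 to 0.66. CREG read 158.3 at hour 1 and 84.4 to 99.5 later. Atg2, a lipid-transfer protein of autophagosome formation, read 196.1 and then 126.6 to 148.9. Sirup, a mitochondrial protein named for its rise in starvation, read 438.8 and then 111.0 to 179.2. Cyp4e3, a cytochrome P450, read 162.4 and then 57.8 to 74.4. For each of them hour 1 was above every later array. They were picked for likeness to InR over arrays that include its high hour 1, so this follows largely from the choice. Over hours 2 to 12 the most like were Droj2, CG4098, dpr14, CG42268 and prd1 (r from 0.85 to 0.91), none of them among the first 5, and Droj2 read 1421 at hour 1, under its later range of 1739 to 2021.

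Beyond the 9 genes, 64 genes of insulin signalling and its surroundings were listed, of which 44 had a probe set and 41 were tested. At hour 1 against the later hours 2 of the 41 were called higher, 0 lower and 39 did not pass, beside 0.561% higher over the whole table. The 2 were REPTOR-BP and bmm. The median difference of the 41 was 0.18 on the log2 scale, beside -0.02 for all tested probe sets. Hour 1 was the highest array for 15 of them and the lowest for 1, beside 15.3% and 12.4% of all tested probe sets. The lists were chosen with earlier results of these data known, so these contrasts are no independent support. Without the arrays with male RNA, 2 of the 41 were called. The share of all tested probe sets called in that reduced fit is not given here, so this count cannot be set against its background. Over all alternatives the whole-table count at hour 1 ranged from 16 to 178.

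**Figure D4:**
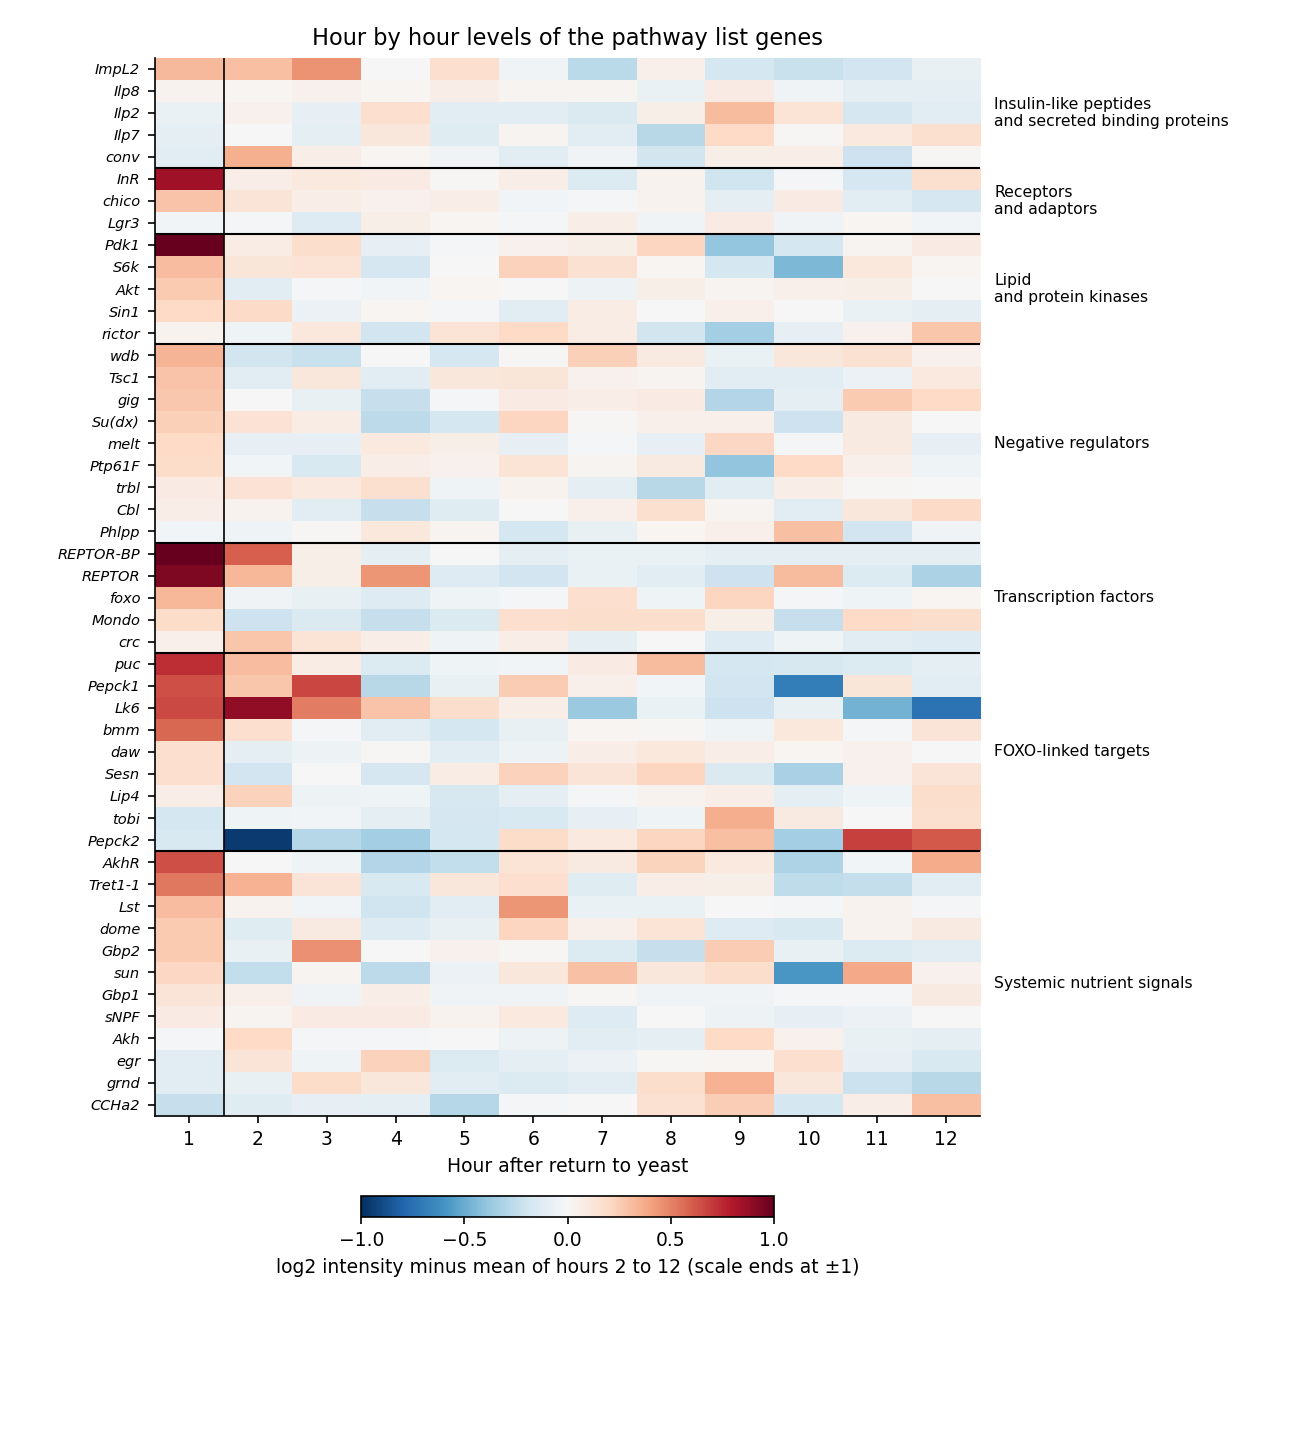
Log2 intensity, floored, minus the mean of hours 2 to 12 for 48 genes (rows, grouped by list) against hour (columns). These are the genes of the pathway lists tested under their listed symbol, the 7 insulin genes included and mTor left out. The color scale ends at ±1. Of the 48 genes 20 have their highest reading in the hour 1 column, where REPTOR-BP, Pdk1, REPTOR and InR are the deepest red.

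Of 5 tested transcription factors of the pathway 1 was called higher at hour 1 and 4 did not pass, beside 0.561% called higher over the whole table. The 1 was REPTOR-BP. REPTOR-BP, a bZIP factor that partners REPTOR in the response to low TOR activity, read 232.1 at hour 1, 92.3 at hour 2, and 44.3 to 63.2 from hour 3 on. It was above the floor on 6 of the 12 arrays, and its log2 difference was 1.93 ± 0.19 (SE, limma adjusted p = 0.000535). The floor makes this difference smaller, but it also narrows the spread of the later arrays, so the error and p may be too small. REPTOR-BP passed in all 21 alternatives in which it was tested. REPTOR read 369.6 at hour 1 and 155.3 to 262.1 later, and its hour 1 difference of 0.94 ± 0.24 did not pass (limma adjusted p = 0.0968). Over 12 hours REPTOR fell by 0.74 ± 0.23 (limma adjusted p = 0.0431), by 0.45 and without a call when hour 1 was left out (0.212), and the call was lost too without hour 2 (0.0838), 4 (0.0726), 7 (0.0564), 8 (0.0608), 9 (0.0672), 11 (0.0801) or 12 (0.121), with the actin covariate (0.636), with no filter on low values (0.0564) and on ranks (0.0852). The fly ATF4 gene crc fell by 0.33 ± 0.08 from hour 2 to hour 12 (limma adjusted p = 0.0238), with 2164 measured at hour 2 and 1636 at hour 12. That call was lost without hour 2, where the change was -0.25 (0.144), hour 3 (0.0645), 11 (0.0647) or 12 (0.0627), without the arrays with male RNA (0.214) and with the actin covariate (0.0689).

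Of 9 tested genes linked to Foxo as targets, 1 was higher at hour 1, beside 0.561% of all tested probe sets. Over hours 2 to 12 1 rose and 1 fell, beside 5.94% and 2.67% of all, so these later counts are near the background. The triglyceride lipase gene bmm read 273.6 at hour 1 and 162.4 to 206.4 later, a difference of 0.58 ± 0.11 (SE, limma adjusted p = 0.0362). Its call was lost at about the same size without hour 6 (0.0571), 7 (0.0512) or 11 (0.0609), with the male gland (0.0523) or actin (0.0817) covariate and against hours 2 to 4 (0.0678). Lk6, a kinase of the translation factor eIF4E, fell on its brighter probe set by 1.28 ± 0.16 from hour 2 to hour 12 (limma adjusted p = 0.00106), from 2577 at hour 2, above the 2196 of hour 1, to 833 at hour 12. Without the arrays with male RNA Lk6 changed by -1.15 (limma adjusted p = 0.0896). Its other probe set, 151687_s_at, did not pass over hours 2 to 12 (-0.82 ± 0.30, limma adjusted p = 0.118). That probe set read 548.6 at hour 1 and 91.4 to 285.5 later, a difference of 1.60 ± 0.40 that did not pass (limma adjusted p = 0.0968). Pepck2, a phosphoenolpyruvate carboxykinase, rose by 1.16 ± 0.24 from hour 2 to hour 12 (limma adjusted p = 0.0127). It read 100.1 at hour 1, 55.8 at hour 2, which is under the floor, and 170.3 at hour 12. This call was lost without hour 2, where the change was 0.90 (0.0835), hour 11 (0.0524) or 12 (0.059), without the arrays with male RNA (0.0669) and with the actin covariate (0.108).

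In the limma fits 0 of the 9 tested negative regulators passed, beside 0.302% to 13.4% of all tested probe sets by fit, and a count of 0 of 9 is near those shares. At an unadjusted p under 0.05 there were 0 of the 9 over hours 1 to 12, 2 at hour 1 against later hours, 1 over hours 2 to 12 and 3 at hour 1 against the extended line. Over all 11586 tested probe sets the same counts were, in that order, 2885, 1457, 2647 and 1077. The smallest p among the regulators was that of wdb, a regulatory subunit of protein phosphatase 2A that acts on Akt, which lay 0.52 ± 0.13 above its later line at hour 1 (limma adjusted p = 0.18), reading 103.8 there. Of 12 tested genes of systemic nutrient signals 1 passed, in the fit over 12 hours, beside 13.4% of all tested probe sets called there. Tret1-1, a trehalose transporter, fell on its brighter probe set by 0.55 ± 0.13 over 12 hours (limma adjusted p = 0.0159), reading 713.0 at hour 1 and 459.9 at hour 12. Its dimmer probe set did not pass (-0.26 ± 0.14, limma adjusted p = 0.27). The brighter lost the call without hour 1, where the change was -0.42 (0.0842), hour 2 (0.0507) or 11 (0.052), without the arrays with male RNA (0.147), with the actin covariate (0.0598) and on ranks (0.0831). Among 5 tested insulin-like peptides and binding proteins, 3 of them peptides (Ilp2, Ilp7 and Ilp8), the hour 1 array was the highest for 0, beside 15.3% of all tested probe sets. ImpL2 was the 1 of the 5 that passed a trend, beside 13.4% of all over 12 hours and 8.61% over hours 2 to 12. Of the 5 kinases tested under their listed symbol hour 1 was the highest array for 4, beside 15.3% of all tested probe sets. Pdk1 was the 1 called higher, beside 0.561%. The TOR kinase (mTor) is not among these 5. Its hour 1 reading lay below its later mean (-0.05 on the log2 scale), so hour 1 was not its highest array.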

How the data were processed

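The authors' deposited values are linear intensities of single arrays. The labels' protocols record Trizol extraction and dChip normalization by invariant difference selection, without a version or background model. They were not normalized further. Values under the 20th percentile (57.2) were raised to it and log2 was taken, and fly probe sets above it on at least 3 arrays were tested (11586 kept, 2380 left out). Precision is limited by the number of arrays. The platform annotation gives 1 symbol to 12443 fly probe sets, several to 327 and none to 1196. A listed gene was matched by its listed symbol, so a gene that the annotation names otherwise, such as mTor, is not counted. It was represented by its brightest tested probe set.

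R 4.3.3 with limma 3.58.1 (Benjamini-Hochberg over the tested probe sets, threshold 0.05) gave 4 fits: a line over hours 1 to 12, hour 1 against hours 2 to 12, a line over hours 2 to 12, and hour 1 against that line extended back. Slopes are scaled to 11 or 10 hours. Bracketed values beside an omitted hour are limma adjusted p. Intervals are at 95% and unadjusted. The code was tested on simulated data. Arrays with male RNA have a mean log2 gland level above the middle of its range.

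Members, lists, the split at hour 1 and the alternatives were chosen with earlier results of these data known. Named genes are the members, list genes past any fit (at most 5 a list) or the one with the smallest p, and the 5 probe sets most like InR over each span. Alternatives changed normalization, floor, filter, variance model, time scale, reference hours, probe set choice or covariates, or left out arrays. The list counts without male arrays were added after seeing the data.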

Additional observations from a re-analysis of the deposited data

How the results depend on the processing

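The hour 1 differences of InR and Pdk1 kept their direction and their call in all 23 alternatives, at 0.77 to 0.87 for InR (limma adjusted p from 0.00495 to 0.0438) and 0.60 to 1.23 for Pdk1 (from 0.000751 to 0.0355). The 0.60 comes from averaging with the second Pdk1 probe set, which is constant at the floor. All 23 keep the same hour 1 array, so they cannot show whether that array is unusual. Counts of called probe sets moved more. Over hours 1 to 12 the 1554 became 848 without the arrays with male RNA, 228 with the actin covariate, 0 with ranks (2982 at an unadjusted p under 0.05) and 943 to 2002 with an hour left out, the lowest values being those without hours 1, 2, 11 and 12. For hour 1 against later hours the 74 became 124 with no filter, 45 with the filter on all 12 arrays, 16 with the actin covariate and 44 to 178 with an hour left out. For the trend over hours 2 to 12 the 997 became 0 without the arrays with male RNA (2225 at an unadjusted p under 0.05), 210 with the actin covariate and 310 to 1762 with an hour left out, and the count of list genes went from 3 to 0 without the male arrays (9 at an unadjusted p under 0.05). For hour 1 against the extended line the 35 became 61 with no filter, 16 without the male arrays, 13 with the gland covariate, 20 with the actin covariate, 7 with log2 of hour and 8 to 47 with an hour left out. The cause was not tested. The sign turned for Pdk1 over hours 2 to 12 without the male arrays (0.13) and for Ilp2 over those hours with the gland covariate (0.041) and with an hour left out (-0.083 to 0.061), none of them called. With log2 of hour the fall over 12 hours passed for InR (-0.67, limma adjusted p = 0.0163) and Pdk1 (-0.90, 0.0236). Over 839 single-gene values under an alternative, 749 kept direction and side of the threshold, 80 lost a call, 4 gained one and 6 changed sign. No paired analysis was possible because the arrays form 1 group with 1 array per hour.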
